A study of Arabidopsis thaliana with 45 samples.

Results

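The 100 probe sets described here had the largest excess in cordycepin over water in non-dormant Arabidopsis thaliana seeds after 24 h of imbibition. They were taken from 27827 probe sets, each named by a locus, and are called genes below. For each one the cordycepin minus water difference of group means was taken in total RNA and in polysomal RNA, and the smaller of both differences gave its rank. A cordycepin mean of at least 4 on the log2 scale in both RNA types was required, which 13483 probe sets met. The genes were thus selected on the values of those 4 groups, which are given as a description without a test, and tests were run only on arrays outside them.

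Cordycepin is an adenosine analogue that lacks the hydroxyl group needed to extend an RNA chain, and it is used in seeds to block new transcription. Dry seeds hold stored mRNAs made during maturation, some of which decay and some of which are translated once the seed takes up water. Abscisic acid, whose synthesis depends on the NCED enzymes, keeps seeds dormant, and gibberellin promotes germination. Polysomal RNA is the RNA that carries several ribosomes and is a readout of transcripts in translation. How far transcription was blocked in these seeds was not measured.

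The seeds came from NILDOG1-Cvi, a near-isogenic line in which the DOG1 locus of Cvi was placed into Landsberg erecta, and all groups share this genotype. Non-dormant (ND) and dormant (D) seeds took up cordycepin or water for 24 h or 6 h before polysomal and total RNA were measured, which gives 16 groups on 45 arrays. There were 3 arrays in 13 groups and 2 arrays in the other 3, which are the 24 h polysomal groups of non-dormant cordycepin, dormant cordycepin and dormant water seeds. The labels describe a replicate as the pooled seed of 8 plants, and the treatment that made seeds non-dormant was not given in the sources used. Array medians were 3.86 to 4.32 (log2), and the number of arrays limits the precision. All 9 seed storage markers had array values from 6.17 to 12.64, above the highest array median. In bulk seeds, fewer cells of a type and less RNA per cell cannot be told apart.

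In the arrays that chose them, the 100 genes had cordycepin means of 4.22 to 9.34 in total RNA and 4.14 to 9.50 in polysomal RNA. The log2 differences ran from 1.05 to 2.75 in total RNA, with a median of 1.39 or 2.63-fold, and from 1.05 to 3.34 in polysomal RNA, with a median of 1.61 or 3.06-fold. The median over all probe sets was 0.01 in both RNA types. At least 4-fold differences were seen for 13 genes in total RNA and 18 in polysomal RNA. All cordycepin arrays lay above all water arrays for 100 genes in total RNA and for 99 in polysomal RNA, the exception being LTI30. The selection on these same arrays favours such a separation, so these counts are a description only. In water, 6 genes in total RNA and 9 in polysomal RNA had means at or below 2.92, the highest lower quartile of any array, where array differences are compressed. At the border of the set, AT5G18450, AT5G08240 and AT2G41225 had smaller differences of 1.0485, 1.0481 and 1.0473, and the next genes outside it, AT4G33070 (the pyruvate decarboxylase gene PDC1), LCV1 and AT2G40008, had 1.0463, 1.0439 and 1.0416.

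The gene of highest rank was NCED6, which encodes a 9-cis-epoxycarotenoid dioxygenase, an enzyme of the committed step of abscisic acid synthesis. In non-dormant total RNA it stood at 6.42, 5.61 and 6.13 with cordycepin, against 3.49, 3.79 and 2.71 in water. In polysomal RNA the values were 6.65 and 7.29 with cordycepin, against 3.78, 4.77 and 4.17 in water. Both differences were 2.73, and no array of the compared groups overlapped. Dormant total RNA had NCED6 at 2.61, 2.24 and 1.98 with cordycepin, against 2.24, 2.11 and 2.50 in water, all under the 2.92 of the highest lower quartile. The dormant differences were -0.01 ± 0.36 in total RNA and 0.01 ± 0.44 in polysomal RNA (SE), and neither passed the limma test (adjusted p = 0.998 for each).

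NCED5 and NCED9, of the same enzyme family, and MFT, a regulator of seed germination related to the florigen FT, were also among the 100. NCED5 had 6.74, 6.78 and 6.88 in non-dormant cordycepin total RNA, against 4.88, 4.96 and 5.59 in water. Dormant seeds had more of it, with 8.30, 8.55 and 8.45 in cordycepin and 7.40, 7.49 and 7.51 in water, and here too the groups did not overlap. The dormant difference of 0.97 ± 0.22 passed the limma test (adjusted p = 0.0145). MFT had 6.41, 6.56 and 6.81 in non-dormant cordycepin total RNA, against 5.22, 4.93 and 4.96 in water. In dormant seeds MFT had 8.61, 8.46 and 8.73 with cordycepin against 8.00, 7.47 and 7.87 in water, and this rise of 0.82 ± 0.20 also passed (limma adjusted p = 0.0248). NCED9 was weaker, with non-dormant differences of 1.35 in total and 1.26 in polysomal RNA, and its dormant difference of 0.61 ± 0.27 did not pass (limma adjusted p = 0.385). GA2OX2, an enzyme that inactivates gibberellin, had non-dormant differences of 1.34 and 1.71, and 0.39 ± 0.27 in dormant total RNA (limma adjusted p = 0.709).

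The 100 included 8 transcription factor genes named here, from CRF6 at rank 2 to ZAT10 at rank 79. CRF6, a cytokinin response factor of the AP2/ERF family, had 8.71, 9.18 and 9.01 in non-dormant cordycepin total RNA, against 6.02, 6.42 and 6.29 in water. NAC044, a NAC factor known from the response to DNA damage, had 7.45, 7.04 and 7.92 with cordycepin, against 4.67, 5.12 and 4.72 in water. Neither gene overlapped between treatments, and in polysomal RNA their differences were 2.89 for CRF6 and 3.15 for NAC044. CRF6 in dormant total RNA differed by 0.71 ± 0.30 (limma adjusted p = 0.357) and NAC044 by 1.05 ± 0.39 (limma adjusted p = 0.261), and neither passed. WRKY25, a stress-responsive WRKY factor, differed by 2.13 in non-dormant total RNA. WRKY25 in dormant total RNA had 5.30, 4.46 and 5.44 with cordycepin, against 3.37, 3.58 and 3.88 in water, and it rose by 1.46 ± 0.33 (limma adjusted p = 0.017). The others were the NAC factor ANAC087 (1.77 in total and 2.77 in polysomal RNA of non-dormant seeds), CRF4 (1.40 and 1.59) and the C2H2 zinc finger factors ZAT12 (1.47 and 1.79), ZAT10 (1.16 and 1.40) and AZF2 (1.39 and 1.71). In dormant total RNA ANAC087 (0.04 ± 0.30), CRF4 (0.16 ± 0.22), ZAT10 (0.76 ± 0.23) and AZF2 (0.14 ± 0.24) did not pass (limma adjusted p = 0.991, 0.905, 0.105 and 0.934). ZAT12 passed there (0.98 ± 0.25, limma adjusted p = 0.043). SMR5, an inhibitor of cyclin-dependent kinases that is known to be induced by DNA damage, differed by 1.68 and 1.62, and by 0.28 ± 0.19 in dormant total RNA (limma adjusted p = 0.713).

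AOX1A, NDB2 and NDA1 serve the alternative pathway of mitochondrial electron transport. AOX1A, the alternative oxidase, had 4.51, 4.56 and 4.66 in non-dormant cordycepin total RNA, against 2.16, 2.47 and 2.51 in water, which places its water level near the bottom of the scale. NDB2 and NDA1, alternative NAD(P)H dehydrogenases, differed by 1.89 and 1.17 in non-dormant total RNA and by 1.65 and 1.62 in polysomal RNA. NDB2 in dormant total RNA had 8.11, 7.52 and 7.77 with cordycepin, against 6.97, 6.91 and 6.31 in water. Its rise of 1.07 ± 0.20 passed the limma test (adjusted p = 0.00244), as did that of NDA1 (0.98 ± 0.25, adjusted p = 0.0375). AOX1A did not pass in dormant total RNA (0.87 ± 0.30, limma adjusted p = 0.202). In dormant polysomal RNA it had 4.02 and 3.79 with cordycepin against 2.02 and 1.94 in water, a rise of 1.93 ± 0.37 (limma adjusted p = 0.00644). Both water values lie under 2.92, where differences are compressed, so the sizes given for AOX1A against them are uncertain. UGT74E2, a glucosyltransferase of the auxin precursor indole-3-butyric acid, differed by 2.12 and 1.88 in non-dormant seeds, and by 0.23 ± 0.23 in dormant total RNA (limma adjusted p = 0.85).

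**Figure D1:**
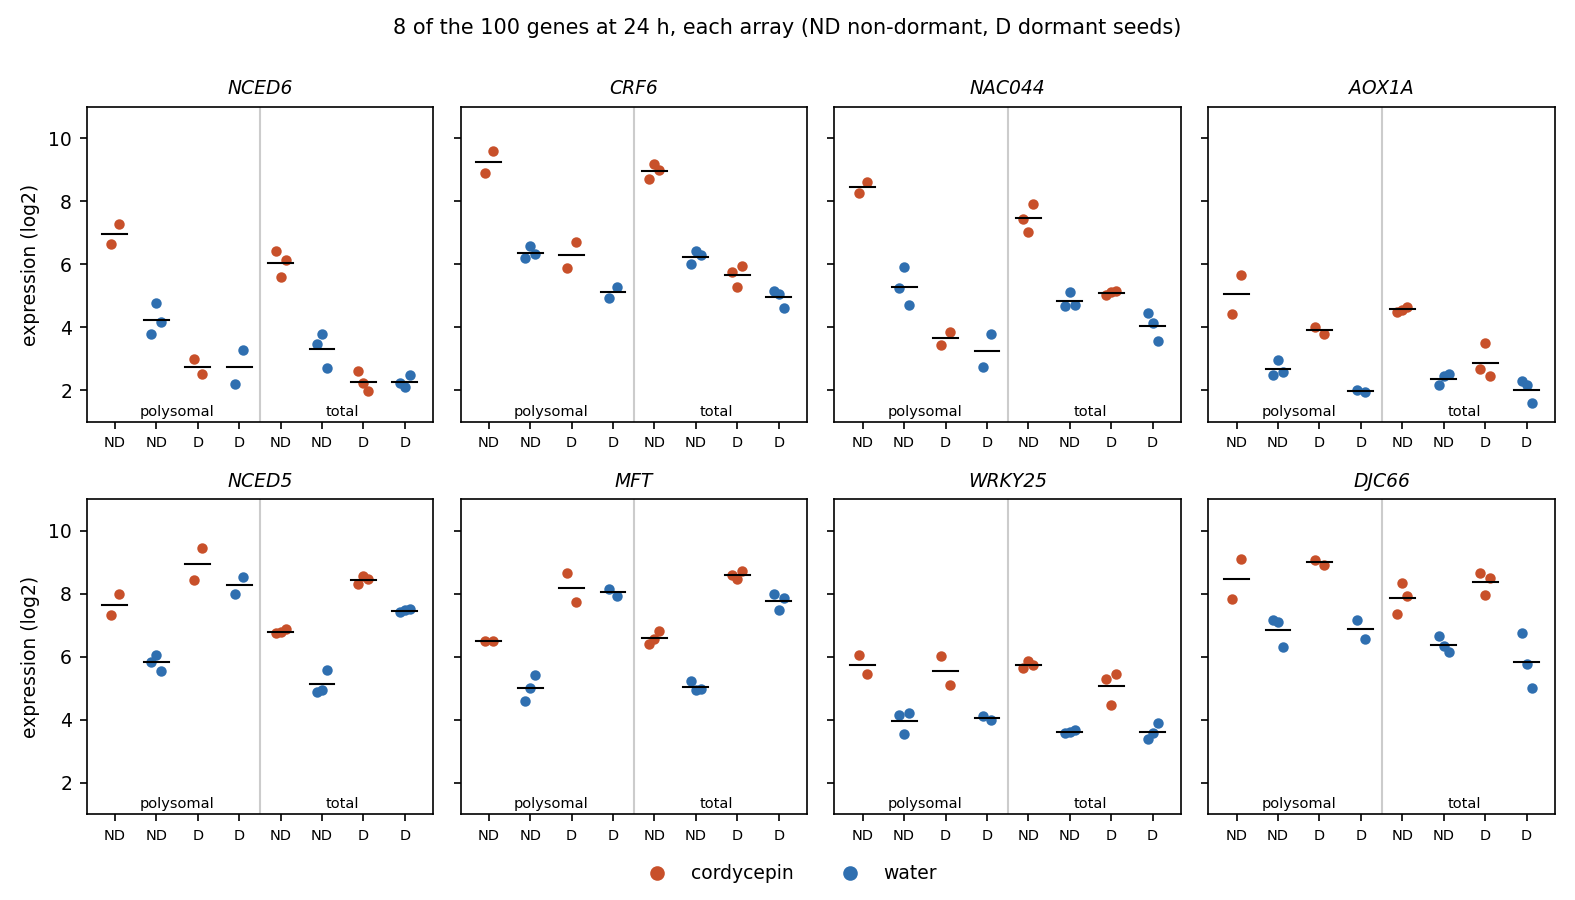
Log2 expression of 8 of the 100 genes at 24 h on each array (points) with group means (bars), in polysomal RNA on the left and total RNA on the right of each panel, for non-dormant (ND) and dormant (D) seeds. NCED6 is raised in non-dormant seeds, with dormant differences of -0.01 and 0.01, and NCED5 and MFT have higher levels in dormant seeds.

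Other members with a symbol had a range of roles. ABCB4, an auxin transporter, had 8.14, 8.03 and 8.13 in non-dormant cordycepin total RNA, against 5.66, 5.42 and 5.74 in water. Its difference in dormant total RNA was 0.48 ± 0.19 (limma adjusted p = 0.324). EMB1030, an organellar alanine-tRNA ligase, differed by 1.74 and 2.42 in non-dormant seeds and by -0.24 ± 0.26 in dormant total RNA, which did not pass (limma adjusted p = 0.86). TPPG, a trehalose-6-phosphate phosphatase, and the next locus AT4G22592 had identical values on all arrays, so the set holds 99 distinct profiles. TPPG had 5.65, 6.10 and 5.50 in non-dormant cordycepin total RNA against 4.34, 4.04 and 4.30 in water, and 5.81, 5.86 and 6.16 in dormant cordycepin total RNA against 4.69, 4.44 and 4.52 in water. The dormant rise of 1.40 ± 0.23 passed (limma adjusted p = 0.000378). ORS1, an organ size regulator, the potassium transporter KUP9 and the asparagine synthetase ASN1 rose in dormant total RNA as well, by 0.97 ± 0.22, 0.74 ± 0.17 and 0.69 ± 0.16 (limma adjusted p = 0.0152, 0.0201 and 0.0219). The cytochrome P450 gene CYP71A26 (1.56 and 1.89 in non-dormant seeds) and SRO3 (1.62 and 2.34), of the family of RCD1, did not pass in dormant total RNA, with 0.54 ± 0.15 (limma adjusted p = 0.0692) and -0.02 ± 0.45 (limma adjusted p = 0.997).

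Some members are known from maturing seeds or from drying and heat. BETA-TIP and TIP3;1, water channels of the protein storage vacuole, had 7.66, 7.29 and 7.46 and 9.26, 9.34 and 9.27 in non-dormant cordycepin total RNA, against 5.61, 5.77 and 6.20 and 7.83, 7.91 and 8.55 in water. LTI30, a dehydrin, had 6.02, 5.98 and 5.86 with cordycepin against 4.35, 5.05 and 5.28 in water. The small heat shock protein gene HSP23.6-MITO differed by 1.08 in total and 1.78 in polysomal RNA of non-dormant seeds. None of these 4 passed in dormant total RNA, where their differences were 0.74 ± 0.25, 0.30 ± 0.19, 0.61 ± 0.33 and 0.54 ± 0.19 (limma adjusted p = 0.169, 0.666, 0.556 and 0.206).

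Dormant seeds at 24 h gave the test on separate arrays. In total RNA 29 of the 100 genes were higher and 0 lower with cordycepin (limma, adjusted p under 0.05), and 61 were higher and 0 lower at an unadjusted p under 0.05. Of all probe sets, 0.697% were called higher and 0.456% lower. At an unadjusted p under 0.05, 2872 of all 27827 probe sets differed, in either direction. The median difference of the 100 was 0.62, against 0.0091 over all probe sets, 91 of the 100 were positive, and for 65 all cordycepin arrays lay above all water arrays, as they did for 9.78% of all probe sets (0 below, against 8.62%). The called differences ran from 0.69 to 2.53, and 18 were at least 2-fold. The count rests on single arrays to a degree: it was 17 without dormant cordycepin replicate 1, 14 without dormant cordycepin replicate 3, 14 without dormant water replicate 2 and 17 without dormant water replicate 3, and 0 when the compared groups were fitted alone. Of the 29 genes, 10 passed whichever of the 6 arrays was left out, among them TPPG and the 5 genes with the largest rises. Of the genes named above, NDB2 lost its call under 1 of the 6 omissions, ORS1 under 3, MFT and WRKY25 under 4, NCED5 and KUP9 under 5, and NDA1, ASN1 and ZAT12 under 6.

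The 5 largest dormant rises were in genes without a symbol in the reference table, except that AT3G13310 is listed there as the DnaJ protein gene DJC66. DJC66 had 8.66, 7.95 and 8.51 in dormant cordycepin total RNA, against 6.76, 5.76 and 5.02 in water, and rose by 2.53 ± 0.33 (limma adjusted p = 1.32e-05). AT4G10260 had 7.10, 5.89 and 6.24 with cordycepin, against 4.48, 4.08 and 3.69 in water (2.33 ± 0.27, limma adjusted p = 3.01e-06). In both genes the dormant difference was larger than the non-dormant one, which was 1.49 for DJC66 and 1.19 for AT4G10260 in total RNA. AT5G46230 had 7.38, 7.15 and 6.96 with cordycepin, against 5.62, 5.01 and 5.02 in water (1.94 ± 0.25, limma adjusted p = 1.12e-05). AT4G31351 and AT4G31355 rose by 2.23 ± 0.41 and 1.83 ± 0.27 (limma adjusted p = 0.00195 and 9.47e-05), and AT4G31351 had 6.21, 4.71 and 4.74 with cordycepin against 3.03, 2.59 and 3.36 in water. In dormant polysomal RNA AT4G31351 differed by -0.52 and AT4G31355 by 0.87, and neither passed. At the other end stood AT5G46710 (-0.32), EMB1030 (-0.24), AT1G08910 (-0.10), NUC-L2, a nucleolin (-0.05), and AT5G18450 (-0.03), none of which passed. AT5G46710 had 7.06, 7.25 and 7.41 in non-dormant cordycepin total RNA, against 4.46, 4.47 and 4.53 in water, and 2.11 to 2.29 and 2.18 to 2.98 in the same groups of dormant seeds.

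In dormant polysomal RNA, with 2 arrays a group, 5 of the 100 were higher and 0 lower (limma), against 0.155% and 0.223% of all probe sets, and 47 were higher and 0 lower at an unadjusted p under 0.05. Unadjusted, 2267 of all 27827 probe sets had a p under 0.05, in either direction. The median difference of the 100 was 0.52, against 0.0067 over all probe sets, and 90 of the 100 were positive. The groups did not overlap for 58 genes that were higher with cordycepin and 2 that were lower, against 16.5% and 16.2% of all probe sets. The 5 were DJC66 (2.12 ± 0.40), AOX1A (1.93 ± 0.37), AT4G10260 (1.93 ± 0.33), AT5G46230 (1.87 ± 0.30) and ZAT12 (1.82 ± 0.31), with limma adjusted p from 0.00156 to 0.00644. All of them but AOX1A were also among the 29 of total RNA. ZAT12 had 6.07 and 6.66 with cordycepin, against 4.63 and 4.48 in water. Without dormant water replicate 2 the count was 0, without dormant cordycepin replicate 1 it was 8, and 0 passed when the compared groups were fitted alone. The difference between the cordycepin effects in polysomal and total RNA was itself tested, and limma called 0 of the 100 and 0% of all probe sets, with 2 higher and 5 lower at an unadjusted p under 0.05. For this difference of effects 939 of all 27827 probe sets had an unadjusted p under 0.05, in either direction. Among the 100, AT4G31351 had the largest difference of effects (-2.75 ± 0.65, limma adjusted p = 0.72).

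**Figure D2:**
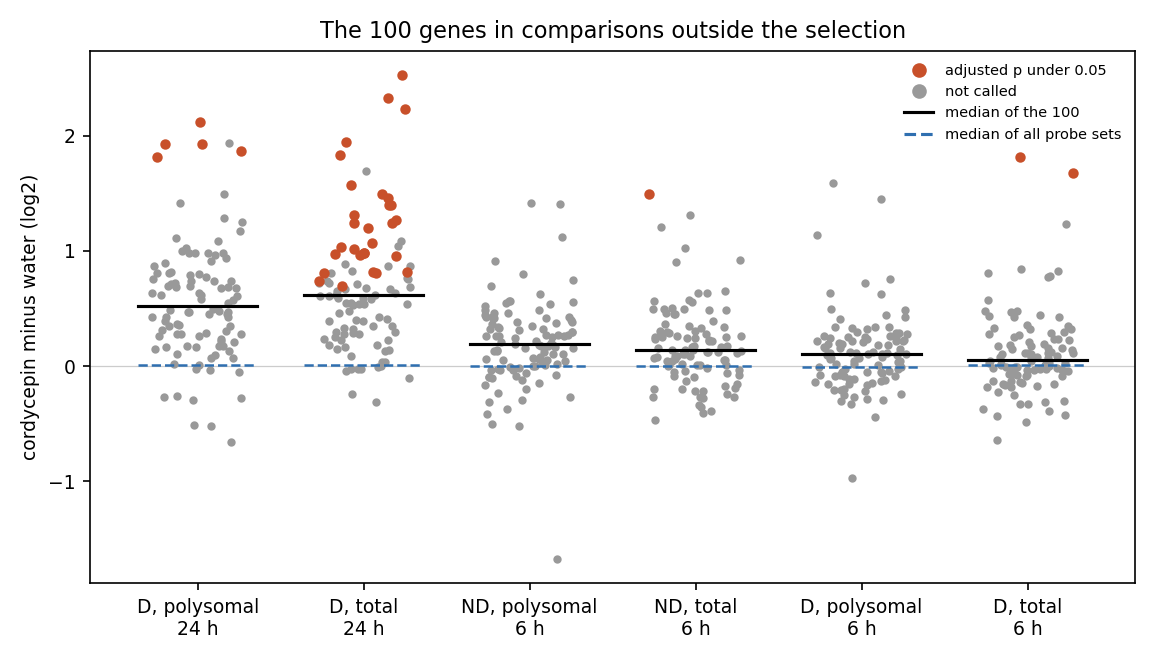
Cordycepin minus water differences (log2) of the 100 genes in the 6 comparisons whose arrays did not choose them, for dormant (D) and non-dormant (ND) seeds. Orange points passed an adjusted p under 0.05 (limma), and the medians of the 100 (black) are 0.52 and 0.62 at 24 h in dormant polysomal and total RNA, against 0.0067 and 0.0091 over all probe sets (blue dashes).

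At 6 h few of the 100 genes were called different between cordycepin and water. In non-dormant total RNA limma called 1 higher and 0 lower, against 0.0216% and 0.0611% of all probe sets, with 13 higher and 0 lower at an unadjusted p under 0.05. In dormant total RNA it called 2 higher and 0 lower, against 0.104% and 0.097%, with 11 higher and 2 lower unadjusted. In polysomal RNA it called 0 in non-dormant seeds, against 0.00359% of all probe sets higher and 0.0216% lower, with 18 higher and 1 lower unadjusted. It also called 0 in dormant seeds, against 0.00359% and 0.00719%, with 9 higher and 1 lower unadjusted. Of all 27827 probe sets, 2351 in non-dormant and 2925 in dormant total RNA had an unadjusted p under 0.05, in either direction. In polysomal RNA 1937 did so in non-dormant and 1272 in dormant seeds. The medians of the 100 were 0.14 and 0.19 in total and polysomal RNA of non-dormant seeds, against 0.0044 and -0.0011 over all probe sets. In those of dormant seeds they were 0.05 and 0.10, against 0.0062 and -0.0051. In non-dormant seeds 74 of the 100 were positive in each RNA type, against 50.6% and 49.8% of all probe sets. In dormant seeds 59 were positive in total and 64 in polysomal RNA, against 50.9% and 49.2%. AT3G23170, a locus with no symbol, passed in both seed types. It had 8.57, 8.11 and 7.50 in non-dormant cordycepin total RNA at 6 h against 6.43, 6.78 and 6.51 in water (1.49 ± 0.31, limma adjusted p = 0.0308), and 8.24, 8.35 and 8.30 in dormant cordycepin total RNA against 6.73, 6.84 and 5.88 in water (1.81 ± 0.31, limma adjusted p = 0.00469). DJC66 passed in dormant seeds, with 8.07, 8.11 and 8.35 with cordycepin against 6.95, 6.51 and 6.06 in water (1.67 ± 0.33, limma adjusted p = 0.0194). The genes of highest rank did not pass at 6 h: in non-dormant total RNA the differences were 0.06 ± 0.36 for NCED6 (limma adjusted p = 0.99), -0.27 ± 0.30 for CRF6 (limma adjusted p = 0.901) and -0.24 ± 0.30 for AOX1A (limma adjusted p = 0.918). The 6 h means of NCED6 in both treatments and of AOX1A with cordycepin lay under 2.92, where differences are compressed.

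The excess at 24 h was made up of different time courses. In non-dormant cordycepin seeds 17 of the 100 genes were at least 2-fold higher at 24 h than at 6 h in both RNA types, 32 were at least 2-fold lower in both, and 51 lay between. These counts use the arrays that chose the genes and are a description. In water the same seeds had a median 24 h minus 6 h difference of -1.74 in total RNA, with 4 genes at least 2-fold higher and 66 at least 2-fold lower, against -0.08 over all probe sets. With cordycepin the median was -0.46, with 17 higher and 36 lower, against a median of -0.07 over all probe sets. The genes were chosen for a water mean below the cordycepin mean at 24 h, which favours low values in water at 24 h. The shares of all probe sets with 2-fold differences are not given here, so the counts cannot be set against them.

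The 17 genes that were higher at 24 h included CRF6, NCED6, NAC044, AOX1A, ORS1, ANAC087, EMB1030 and GA2OX2. CRF6 had 8.71, 9.18 and 9.01 at 24 h in non-dormant cordycepin total RNA, against 4.22, 4.80 and 4.21 at 6 h, a difference of 4.56, whereas in water the difference was 1.56. AT5G46710 (4.19), AT2G40010 (3.73), NCED6 (3.42) and EMB1030 (2.55) had the next largest differences with cordycepin. In water the 24 h minus 6 h difference of these 4 was positive as well, at 1.74, 2.44, 0.74 and 1.04. NCED6 in both treatments and AT5G46710 in water had 6 h means under 2.92, so the sizes of these differences are uncertain. In dormant total RNA 3 of the 17 were called higher with cordycepin than in water, against 0.697% of all probe sets, with a median of 0.35.

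The 32 genes that were lower at 24 h included BETA-TIP, TIP3;1, LTI30, HSP23.6-MITO, ZAT10, ZAT12, SRO5 and ASN1. LTI30 had 6.02, 5.98 and 5.86 at 24 h in non-dormant cordycepin total RNA, against 10.60, 10.75 and 10.59 at 6 h. In water it had 4.35, 5.05 and 5.28 at 24 h, against 10.44, 10.42 and 10.36 at 6 h. LTI30 was thus far lower at 24 h in both treatments, by 4.69 with cordycepin and by 5.51 in water. AT1G54860 (-3.10 with cordycepin and -4.49 in water), AT5G46230 (-3.00 and -4.60), HSP23.6-MITO (-2.92 and -4.04) and AT4G36010 (-2.86 and -3.80) followed. In dormant total RNA 9 of the 32 were called higher with cordycepin than in water, with a median of 0.64, and 17 of the 51 between, with a median of 0.66, against the same 0.697% of all probe sets.

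**Figure D3:**
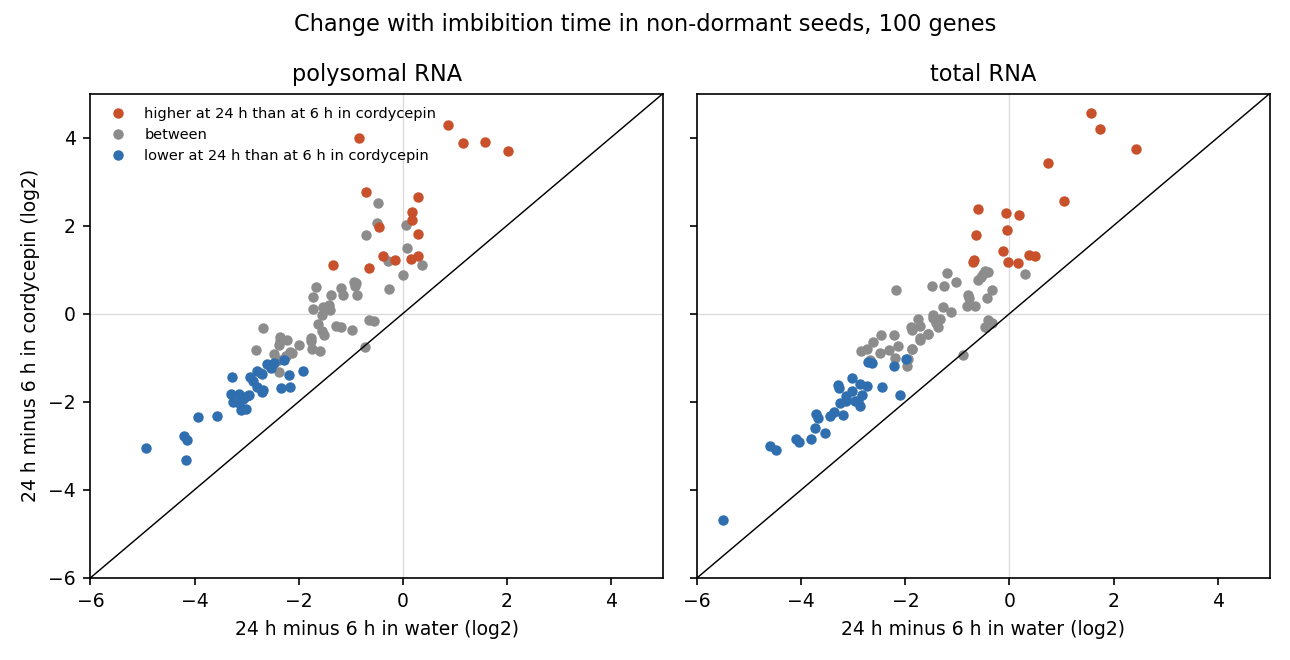
Each of the 100 genes by its 24 h minus 6 h difference (log2) in non-dormant seeds in water (horizontal) and in cordycepin (vertical), in polysomal RNA (left) and total RNA (right). Genes were at least 2-fold higher (orange, 17) or lower (blue, 32) in cordycepin in both RNA types, and the median in total RNA was -0.46 with cordycepin and -1.74 in water. Points above the diagonal have a larger difference in cordycepin than in water.

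The time course in dormant seeds could be tested, since none of its arrays chose the genes, although the 24 h arrays are those of the comparisons with water above. In dormant water total RNA 2 genes were higher and 46 lower at 24 h than at 6 h (limma), against 9.61% and 8.51% of all probe sets. With cordycepin 7 were higher and 19 lower, against 9.46% and 7.19% of all probe sets. Of the genes that were lower, 18 were so in both treatments, which is 18 of 46 in water and 18 of 19 with cordycepin. In polysomal RNA 3 were higher and 41 lower in water (7.94% and 6.41% of all probe sets), and 7 were higher and 23 lower with cordycepin (7.8% and 6.62%), and 22 of these were lower in both. AT5G46230 fell most in dormant water total RNA (-3.90 ± 0.25, limma adjusted p = 5.09e-14), and fell by 1.97 ± 0.25 with cordycepin (limma adjusted p = 2.25e-07). Among the 7 genes that rose with cordycepin in total RNA were AT1G36060 (1.96 ± 0.24, limma adjusted p = 1.26e-07) and MFT (1.01 ± 0.20, adjusted p = 0.000245). MFT also had a positive difference in water, which did not pass (0.51 ± 0.20, limma adjusted p = 0.0695).

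The change of the cordycepin effect between 24 h and 6 h in dormant seeds was tested as a difference of differences. Over all 27827 probe sets, 2517 had an unadjusted p under 0.05 in total RNA, in either direction. In total RNA 5 of the 100 had a larger effect at 24 h and 0 a smaller one (limma), against 0.0683% and 0.0467% of all probe sets, with 35 larger and 0 smaller at an unadjusted p under 0.05. They were AT5G46230 (1.93 ± 0.35), AT4G31355 (1.80 ± 0.38), NCED5 (1.46 ± 0.31), and TPPG with its identical partner AT4G22592 (1.52 ± 0.32), with limma adjusted p of 0.018 to 0.036. NCED5 fell by 0.90 ± 0.22 between 6 h and 24 h in dormant water seeds (limma adjusted p = 0.00222) and differed by 0.55 ± 0.22 with cordycepin (limma adjusted p = 0.0769). In polysomal RNA AOX1A alone passed, at 2.90 ± 0.48 (limma adjusted p = 0.0084), against 0.00719% of all probe sets higher and 0.018% lower. AOX1A had 4.02 and 3.79 in dormant cordycepin polysomal RNA at 24 h and 2.83, 3.43 and 3.43 at 6 h, and 2.02 and 1.94 in water at 24 h against 4.47, 4.28 and 3.85 at 6 h. The water arrays fell by 2.22 ± 0.34 (limma adjusted p = 6.92e-06), to values under 2.92 where sizes are uncertain. The cordycepin arrays differed by 0.68 ± 0.34 (limma adjusted p = 0.211). The cordycepin minus water difference at 6 h, which also enters the 2.90, was -0.97 ± 0.30 and did not pass (limma adjusted p = 0.681).

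**Figure D4:**
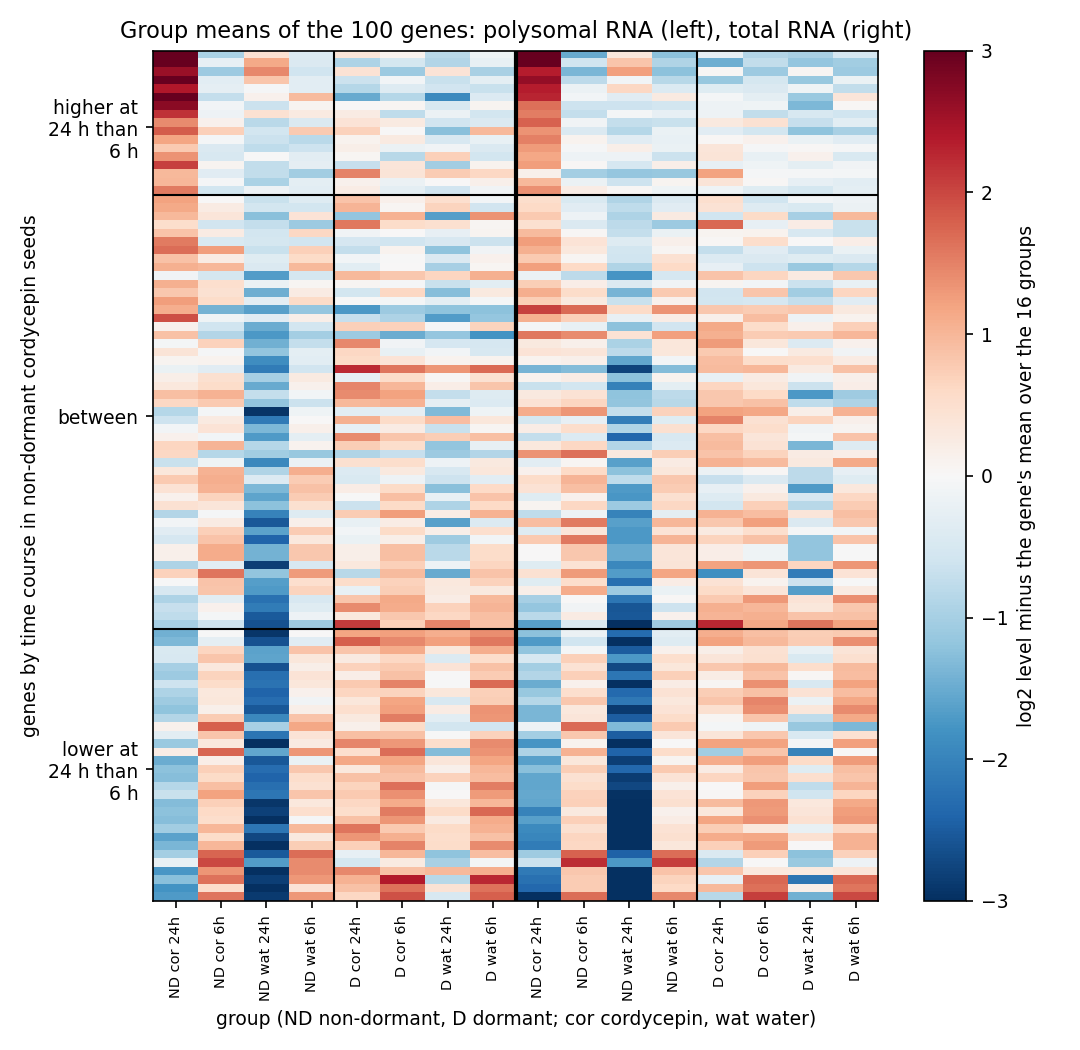
Group means of the 100 genes (rows) in the 16 groups (columns), as the log2 level minus the gene's mean over the groups, with colours saturating at 3 and -3. Rows are divided into the 17 genes higher at 24 h than at 6 h in non-dormant cordycepin seeds, the 51 between and the 32 lower, and the non-dormant water column at 24 h is the lowest for most of the lower rows.

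The genes already differed between seed types at 6 h in water. In total RNA 7 of the 100 were higher and 25 lower in the non-dormant seeds (limma), against 3.11% and 2.82% of all probe sets, or 19 in all with the compared groups fitted alone. In polysomal RNA 7 were higher and 26 lower, against 2.3% and 2.19%. NCED5 (-1.33 ± 0.22, limma adjusted p = 6.7e-05), NDA1 (-1.28 ± 0.25, adjusted p = 0.00083) and FD4, a ferredoxin (-1.78 ± 0.21, adjusted p = 3.03e-07), were lower in non-dormant total RNA. SRO5 (2.13 ± 0.32, limma adjusted p = 1.95e-05), UGT74E2 (0.77 ± 0.23, adjusted p = 0.0371) and NUC-L2 (0.87 ± 0.27, adjusted p = 0.0434) were higher. With cordycepin 9 were higher and 21 lower in total RNA, against 2.45% and 2.38% of all probe sets, and 5 were higher and 20 lower in polysomal RNA, against 1.37% and 1.59%. At 24 h, as a description, the median non-dormant minus dormant difference in total RNA was -0.46 with cordycepin and -1.03 in water. The medians over all probe sets were -0.03 and -0.05. With cordycepin 23 genes were at least 2-fold higher and 42 at least 2-fold lower in non-dormant seeds, and in water 4 and 51. The shares of all probe sets with 2-fold differences are not given here, and the selection favours low values in non-dormant water seeds at 24 h.

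Ribosome loading was compared on arrays outside the selection. In dormant seeds in water at 24 h 13 of the 100 were higher and 8 lower in polysomal than in total RNA (limma), against 7.7% and 8.85% of all probe sets, so the lower genes are near the share of all probe sets. In the quantile-normalized values 7 were higher and 6 lower. The sum of 21 was 9 and 10 without dormant water polysomal replicates 1 and 2, 13 and 10 without dormant water total replicates 2 and 3, and 9 with the compared groups fitted alone. With cordycepin 10 were higher and 9 lower, against 6.24% and 7.92%. At 6 h in water the non-dormant seeds had 9 higher and 9 lower genes, against 13.2% and 11.6%, and the dormant seeds 12 and 9, against 12.8% and 11.5%, which is no more than the share of all probe sets. In dormant water seeds at 24 h the lowest were AT1G21528 (-2.02 ± 0.41, limma adjusted p = 0.000675), AT5G59390 (-1.93 ± 0.53, adjusted p = 0.0102), AT1G29640 (-1.52 ± 0.39, adjusted p = 0.00625) and AT3G13277 (-1.49 ± 0.23, adjusted p = 2.35e-05), the last of which is annotated as a non-coding RNA. AT3G13277 had 4.22 and 4.97 in dormant water polysomal RNA against 6.10, 5.88 and 6.29 in total RNA, and it rose with cordycepin in dormant total RNA by 1.03 ± 0.21 (limma adjusted p = 0.00543). NCED5 (0.80 ± 0.24, limma adjusted p = 0.0206) and NDB2 (0.95 ± 0.22, adjusted p = 0.00332) were higher in polysomal RNA of the same seeds. These values are relative to the average transcript, since arrays were scaled to each other.

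Several of the genes lay next to each other in the genome. Of 98 members placed in the gene order of the reference annotation, 14 were next to another member, in 8 adjacent pairs, of which 3 pairs overlap (ORS1 with AT2G41231, AT2G44798 with AT2G44800, and AT4G31354 with AT4G31355). Probe sets of overlapping genes may measure the same RNA, and whether they are strand-specific is not stated. The 179 genes next to a member that are no members had a median cordycepin difference of 0.05 in non-dormant total RNA, against 0.01 over all probe sets. Of these neighbours 16.2% were higher with cordycepin by at least 0.5, against 7.74% of all. In dormant total RNA the median was -0.0014 against 0.0091, and 10.6% against 6.11% were higher by at least 0.5. The median gene length of the members was 1681 bp, against 2088 bp for all, and 2 of 98 (2.04%) are not protein coding, against 2.77% of all. None is encoded by the plastid or the mitochondrion, and they lie on all 5 chromosomes.

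Gene lists of related processes held few of the 100. Of 32 genes of abscisic acid signalling and dormancy 4 were members. In dormant total RNA the list median was 0.19, and 5 rose and 1 fell (limma), against 0.697% and 0.456% of all probe sets. Besides NCED5 and MFT these were AFP1 (0.96 ± 0.23, adjusted p = 0.0217), ABI2 (0.90 ± 0.16, adjusted p = 0.00126) and AFP3 (0.89 ± 0.23, adjusted p = 0.0409), which act as negative regulators of the abscisic acid response, and PIF1, a phytochrome-interacting repressor of germination, was lower (-0.64 ± 0.15, adjusted p = 0.0168). Of 24 rapid stress response genes ZAT12 passed in both RNA types of dormant seeds (limma), a call lost under 6 of 6 single-array omissions in total and 2 of 4 in polysomal RNA, with list medians of 0.22 in total and 0.29 in polysomal RNA. Of 18 genes of detoxification and mitochondrial stress HSPRO2 fell in dormant total RNA (-0.77 ± 0.18, limma adjusted p = 0.0168) and AOX1A rose in polysomal RNA, with list medians of 0.06 and 0.31. Of 21 heat shock genes 0 passed in dormant total RNA (limma; 7 higher and 0 lower at an unadjusted p under 0.05), with a median of 0.49, and 0 passed in polysomal RNA (8 higher and 0 lower), with a median of 0.45. Of 19 late embryogenesis abundant genes 0 passed in either RNA type (limma; 1 higher and 1 lower in total and 4 higher and 0 lower in polysomal RNA unadjusted), with medians of 0.03 and 0.12.

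The remaining lists held none of the 100 genes. Of 20 genes of mRNA decay and polyadenylation VCS, a scaffold of the decapping complex, rose in dormant total RNA (0.65 ± 0.16, limma adjusted p = 0.0341), and the list medians were 0.05 in total and -0.01 in polysomal RNA. Of 7 genes of adenosine salvage and transport 0 passed in either RNA type (limma; 0 higher and 1 lower in total and 0 of either in polysomal RNA unadjusted), with medians of -0.05 and -0.12. Of 15 storage and oil body genes SESA4 rose in dormant polysomal RNA (1.49 ± 0.33, limma adjusted p = 0.0284), with list medians of 0.11 in total and 0.08 in polysomal RNA. In non-dormant seeds at 24 h all 15 storage genes were higher with cordycepin, with medians of 0.57 and 0.69. The mean level of the 9 storage markers there was 10.02 to 10.16 with cordycepin against 9.20 to 9.79 in water in total RNA, and 9.90 to 10.06 against 8.95 to 9.45 in polysomal RNA. The part of this shift in the differences of the 100 genes was not tested.

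Markers of other seed parts overlapped between treatments in non-dormant total RNA at 24 h, and some of their means did not overlap elsewhere. At 24 h the mean of the seed coat markers in non-dormant polysomal RNA was 4.26 to 4.29 with cordycepin and 4.39 to 4.58 in water. In both groups 4 of the 9 markers had means at or below 2.92, where differences are compressed, and 3 of the 9 differences were positive. The mean of the endosperm markers in dormant total RNA at 24 h was lower with cordycepin on every array, with 2 of the 5 markers positive, and at 6 h it was higher on every array (5.60 to 5.68 with cordycepin and 5.29 to 5.57 in water). The mean level of the 5 endosperm markers in non-dormant total RNA at 24 h was 7.32 to 7.51 with cordycepin and 7.35 to 7.51 in water, and in dormant total RNA 5.85 to 5.95 and 6.06 to 6.30. For the 9 seed coat markers it was 4.36 to 4.45 and 4.38 to 4.69 in non-dormant, and 4.05 to 4.24 and 4.20 to 4.30 in dormant total RNA. In dormant seeds 0 of the 5 and 0 of the 9 passed for cordycepin against water in either RNA type (limma; unadjusted, 0 higher and 2 lower endosperm markers and 0 higher and 1 lower seed coat marker in total RNA, and 0 and 1, and 1 and 0, in polysomal RNA). Their part in the differences of the 100 genes was not tested.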

How the data were processed

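Expression was measured on arrays of total and polysomal RNA. The authors deposited log2 values from RMA (background correction, normalization between arrays and probe summary), per the submitters' processing notes. Array type, probe set definition and genome build were not given in the sources used. No further normalization was applied. The labels' treatment protocol speaks of dry seeds and their molecule field of total RNA for every array. Titles, which give imbibition time and RNA type, were followed.

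The members, gene lists and comparisons were chosen with earlier results of these data known. With limma 3.58.1 (R 4.3.3), 16 group means were fitted over the 45 arrays together (29 residual and 6.392 prior degrees of freedom), with Benjamini-Hochberg adjustment over 27827 probe sets, and the procedure was tested on simulated data. P-values thus rest on a spread between bulks that all groups share. Errors of differences are SEs. Of the 100 members, 88 have an overall mean of at least 4. A 2-fold difference is 1 on the log2 scale.

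Names come from a table of the RefSeq annotation, TAIR10.1, which matched 98 members and 27241 probe sets. ZAT12, ZAT10, AZF2, MFT, SMR5, DJC66 and PDC1 are synonyms there. A rule named the 20 members of highest rank with a symbol, the 5 highest and 5 lowest dormant differences and time differences, the genes at the border, members on a list, and up to 4 called genes of each list. Other members were named after their values were seen. Alternatives are listed in the closing section. All columns matched a sample. Tables and figures used Python 3.11.15.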

Additional observations from a re-analysis of the deposited data

Results flagged for a closer look

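The cordycepin effect in dormant seeds differed between 24 h and 6 h for 6 of the 100 genes (limma test of the difference of differences). In total RNA the excess at 24 h was 1.93 for AT5G46230, 1.80 for AT4G31355, 1.46 for NCED5 (AT1G30100), and 1.52 for both TPPG (AT4G22590) and AT4G22592, which share their values. In polysomal RNA it was 2.90 for AOX1A (AT3G22370), where 2 arrays a group stood at 24 h and the 24 h water values lay under 2.92. Its cordycepin minus water difference at 6 h was -0.97, which is part of the 2.90.

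In dormant polysomal RNA at 24 h, AT3G25290 and AT4G38781 differed by -0.66 and -0.26, so all cordycepin arrays lay below all water arrays, the opposite of non-dormant seeds. The difference between seed types was not tested, and 16.2% of all probe sets were lower in this way in that comparison.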

How the results depend on the processing

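Requiring a cordycepin mean of 6 left 58 of the 100 genes in the set. The counts of members called in dormant seeds at 24 h, 29 in total and 5 in polysomal RNA, were 0 and 0 with only the compared groups fitted. They were 14 to 24 and 0 to 8 without single replicates, and 9 in polysomal RNA among probe sets with a mean of at least 4. Of the 29 genes 10 kept their call whichever array was left out, and of the 5 genes 0 did. At 6 h, fitting only the compared groups gave 0 in non-dormant and 0 in dormant total RNA (1 and 2 with all groups). Array weights gave 2 and 0 there, and 4 and 2 in polysomal RNA (0 and 0 without them). Non-dormant polysomal RNA at 6 h gave 1 with trended robust variances, 1 among probe sets with a mean of at least 4 and 1 with the replicate block. Leaving out single replicates gave 0 to 1 in non-dormant and 1 to 2 in dormant total RNA at 6 h. Dormant time comparisons of total RNA gave 41 to 46 in water (48) and 21 to 24 with cordycepin (26) without single replicates. Seed types at 6 h gave 19 with only the compared groups and 25 to 29 without single replicates (32). Polysomal against total RNA gave 9, 9 to 20, and 13 after quantile normalization (21). The cause of these changes was not tested. No gene's difference turned sign as a call.

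Replicate numbers were not taken to pair arrays. In total RNA same-numbered arrays correlated with a median of 0.016 (-0.099 to 0.1), against -0.007 for different numbers. In polysomal RNA the medians were 0.263 (-0.014 to 0.492) and -0.164. Same-numbered polysomal arrays were thus more alike than others, and the main tests leave this out. Its cause was not tested. Of the single-gene results, 2011 kept their side of the threshold, 47 gained and 118 lost it. The number of arrays, 2 or 3 a group, limits the rest.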
